A study of Bos taurus with 12 samples.

Results

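The genes described here encode nucleolar proteins of ribosome making, GNL3, NOP9, NCL, FBL and NPM1. A probe set was taken as a member when the array's annotation gave exactly 1 of these 5 symbols, which left 6 of the 24016 probe sets tested. The annotation's gene identifiers are 506152 for GNL3, 528833 for NOP9, 497013 for NCL and 538548 for FBL. The 6 probe sets belong to 4 genes, since 3 of them name NOP9, and NPM1 (nucleophosmin) was not analysed here because no probe set in the annotation used names it. GNL3 and NOP9 were put on the list for their low signal in 8-16-cell embryos of prepubertal origin, so every value of theirs that uses those arrays is a description with no test. NCL and FBL were not chosen by their values and were tested throughout.

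RNA came from pools of Japanese Black cattle embryos made in vitro, and 12 arrays were split evenly over 4 groups. The groups were day 7 expanded blastocysts from oocytes of prepubertal heifers, day 7 expanded blastocysts from oocytes of adult cows, day 3 embryos with 8 to 16 cells from prepubertal heifers, and day 3 embryos with 8 to 16 cells from adult cows. They are called heifer blastocysts, adult blastocysts, heifer 8-16-cell embryos and adult 8-16-cell embryos below. The heifers were 9 to 12 months old and their ovaries were taken at farms, whereas the ovaries of the adult cows came from an abattoir, so donor age and the source of the ovaries cannot be told apart. All oocytes were matured in vitro, fertilized with frozen semen of a Japanese Black bull and cultured in the same media. A pool held 10 blastocysts or 50 embryos of the earlier stage (70 to 72 hours after insemination), selected for normal morphology, and the labels call the 3 pools of a group biological replicates without saying whether they share donors. The p-values therefore speak for the spread between such pools, taken mostly from probe sets of like signal and little from each probe set alone.

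The nucleolus is the part of the nucleus where RNA polymerase I copies the ribosomal RNA genes and where the transcript is cut, modified and packed with ribosomal proteins. FBL (fibrillarin) is the methyltransferase of the box C/D small nucleolar ribonucleoproteins, which methylate ribose in ribosomal RNA. NCL (nucleolin) is an abundant RNA-binding protein of the nucleolus that takes part in transcription and early processing of the precursor. GNL3 (nucleostemin) is a GTP-binding protein that is abundant in stem cells and other dividing cells and is linked to processing of the precursor, and NOP9 is an RNA-binding protein that in yeast is needed to make the RNA of the small subunit. In cattle the early embryo carries compact nucleolar precursor bodies, and working nucleoli form as the embryo's own genome becomes active, around the 8-16-cell stage.

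The deposited value is a signal per probe set on a linear scale, and differences are given as log2(signal + 16), with the standard error (SE) and a 95% interval from a limma fit over all 12 arrays. Calls were made where the p-value, after the Benjamini-Hochberg adjustment over all 24016 probe sets, lay under 0.05. The files hold no detection call, so a signal counts as above background only where it exceeds the brightest of the array's 27 Bacillus subtilis control probe sets. Whether these controls had been spiked into the labelled samples was not checked. If they were, this background is set too high, and the statements on signals under it and the fold bounds made from it change with it. That background lay between 172 and 254 on the heifer blastocyst arrays, 187 and 282 on the adult blastocyst arrays, 356 and 1664 on the heifer 8-16-cell arrays, and 122 and 251 on the adult 8-16-cell arrays. The heifer 8-16-cell arrays had the fewest probe sets above background, 1255 to 5333, against 5482 to 7148 on the adult 8-16-cell arrays, while the heifer and adult blastocyst arrays had 8129 to 8500 and 6093 to 7009. Replicate 3 of the heifer 8-16-cell group stood apart: it had the background of 1664 and the 1255 probe sets, and its 100 brightest probe sets held 49.3% of its signal, against 23.3% to 32.7% on the other 11 arrays. Hybridization controls were 3.03-fold brighter in heifer than in adult 8-16-cell arrays (2.23-fold without that replicate). Their part in the member values was not tested.

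The stage labels could be checked against markers. The 5 trophectoderm markers measured, keratin 18 among them, summed to 40769 to 76811 in heifer blastocysts and 31662 to 55326 in adult blastocysts, against 292 to 901 in heifer and 130 to 533 in adult 8-16-cell embryos. The 2 pluripotency markers measured summed to 824 to 3149 and 387 to 2279 in heifer and adult blastocysts, against 91.2 to 681 and 25.6 to 168 in heifer and adult 8-16-cell embryos, with SOX2 at background on every array. The 6 oocyte markers summed to 227 to 1703 and 602 to 722 in heifer and adult blastocysts, against 50794 to 264810 and 31031 to 55603 in heifer and adult 8-16-cell embryos, where ZP3 and NLRP5 were at background. On an array, 0 to 3 and 0 to 1 of them were above background in heifer and adult blastocysts, against 3 to 4 and 4 at the earlier stage. NLRP5 was above background on at least 1 heifer blastocyst array and ZP3 on at least 1 adult blastocyst array, against the direction of the sums. Of 13 cumulus and granulosa markers, FSHR, INHA, PTX3, CYP11A1 and AMH were at background on every array, and 1 to 2, 2 to 3, 1 to 2 and 2 to 5 were above background on an array of heifer blastocysts, adult blastocysts, heifer 8-16-cell and adult 8-16-cell embryos. In that order the list summed to 1834 to 3098, 2761 to 4585, 3759 to 16100 and 4431 to 17717. In the same order of groups, at most 1, 1, 1 and 2 of 7 blood markers and 2, 1, 0 and 1 of 6 sperm markers were above background on an array, with sums no higher than 2722 for blood and 3136 for sperm.

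**Figure D1:**
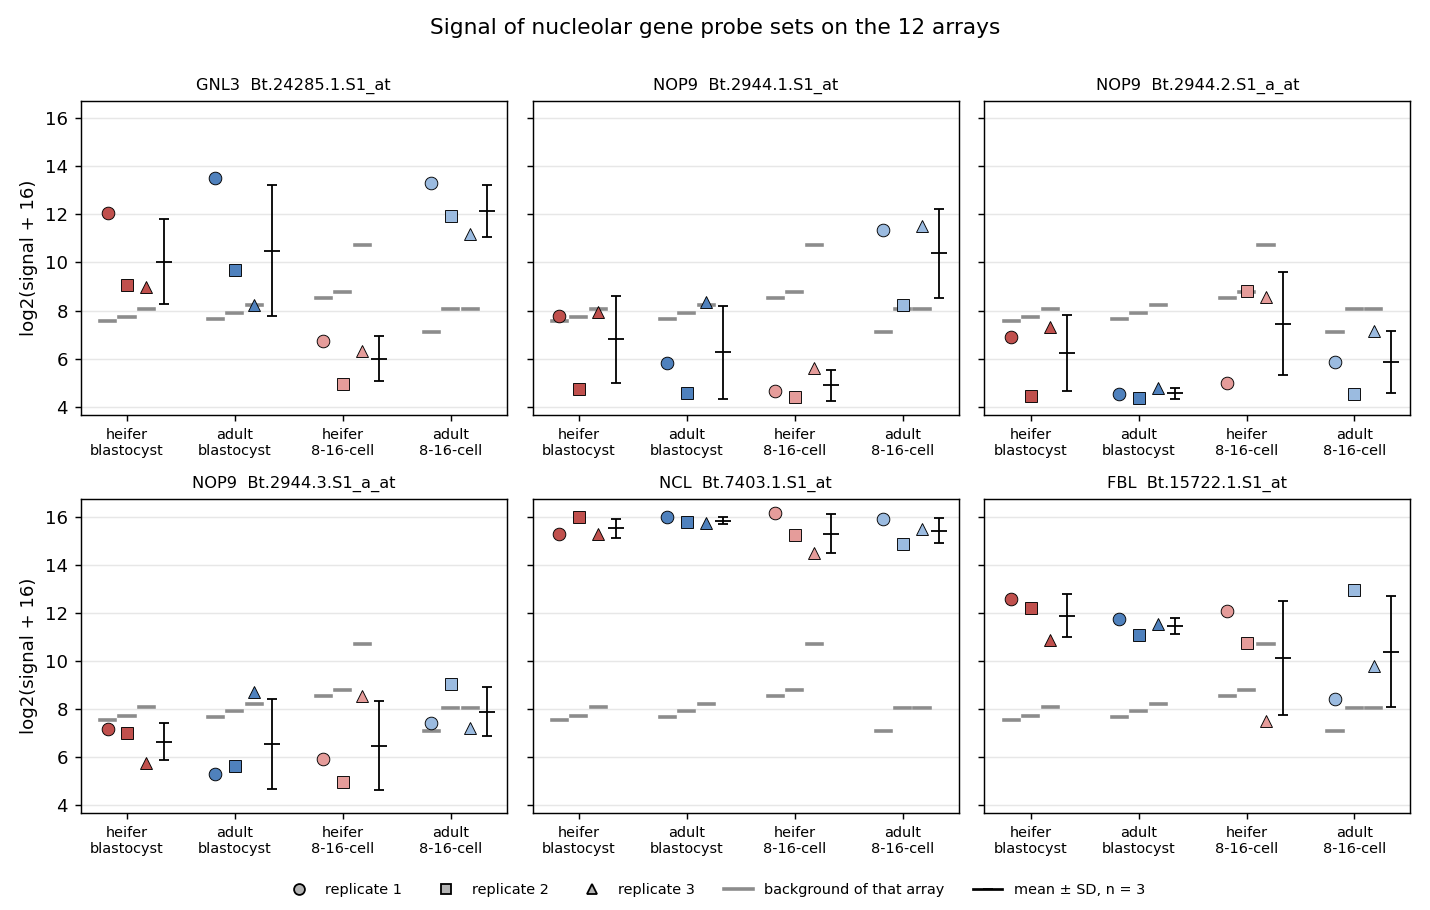
Log2(signal + 16) of each member probe set on every array, with heifer left of adult and blastocyst left of 8-16-cell. Points are arrays, black marks the mean ± SD of 3 arrays, and grey bars are each array's background. GNL3 and the first NOP9 probe set lie under background on all 3 heifer 8-16-cell arrays, and NCL lies far above it on all 12.

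GNL3 was above background on every array of 3 groups and on no array of heifer 8-16-cell embryos. Its probe set read 4299, 516 and 492 in heifer blastocysts and 11678, 805 and 289 in adult blastocysts, all 6 above background, though adult replicate 3 only just (289 against a background of 282). It read 90.2, 14.7 and 64.3 in heifer 8-16-cell embryos, all 3 under background, and 10124, 3860 and 2330 in adult 8-16-cell embryos, all 3 above it. The 2 sets of 8-16-cell arrays therefore do not overlap, the lowest adult array lying above the highest heifer array. Means on the log2 scale were 10.04 ± 1.76 in heifer blastocysts, 10.48 ± 2.72 in adult blastocysts, 6.0 ± 0.94 in heifer 8-16-cell embryos and 12.14 ± 1.07 in adult 8-16-cell embryos (SD, n = 3 each).

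As a description of the contrast that put the gene on the list, the GNL3 difference between heifer and adult 8-16-cell embryos was -6.14. With each heifer signal raised to its array's background, GNL3 was at least 6.95-fold lower in the heifer embryos, and at least 11.2-fold lower without heifer replicate 3. Raising every signal of all arrays to the background of that replicate left a difference of -1.43. With pools of whole embryos, fewer cells that hold a transcript and less of it per cell cannot be told apart. In blastocysts the donor groups overlapped, with a GNL3 difference of -0.44 between heifer and adult (SE 1.46, 95% interval -3.32 to 2.43, adjusted p = 0.9996 by limma). That sign turned when adult replicate 1, heifer replicate 2 or heifer replicate 3 was left out (1.07, 0.05 and 0.08).

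Between stages, GNL3 took opposite signs in the donor groups. GNL3 was listed for a low heifer 8-16-cell signal set against the adult 8-16-cell arrays. That choice favours opposite signs, and the adult stage estimate is not free of it. Heifer blastocysts were higher than heifer 8-16-cell embryos by 4.04 on the log2 scale, and by at least 1.62-fold when the early signals were raised to background, with no overlap of the arrays. With every signal raised to the highest background of any array, the heifer stage difference was 0.46. Adult blastocysts gave -1.66 against adult 8-16-cell embryos (SE 1.46, interval -4.54 to 1.22, adjusted p = 0.8005), and the arrays overlapped. That estimate was -3.17 without adult blastocyst replicate 1, -1.08 without adult 8-16-cell replicate 1 and -0.54 without adult blastocyst replicate 3, and -0.50 with signals raised to the highest background. The difference of the donor effects, blastocyst minus 8-16-cell, was 5.70, again a description, and 0.95 with signals raised to the highest background. Adult blastocysts spread over 40.4-fold among their 3 arrays and heifer blastocysts over 8.74-fold, and in each of the 4 groups replicate 1 had the highest GNL3 signal.

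NOP9 is read by 3 probe sets, called the first, the second and the third here in the order of the plots, and their signals were mostly under background. Over the 12 arrays, Pearson's r was 0.08 between the first and second, 0.46 between the first and the third, and -0.09 between the second and the third, a description over arrays that share groups. The first was above background on 5 arrays, the third on 3 and the second on 1. With so many signals under background, the r values cannot show whether the 3 probe sets disagree, and no single pattern of NOP9 is read from them. In heifer 8-16-cell embryos the first and the third were under background on all 3 arrays, and the second was above it on 1. Only for the first did the heifer and adult 8-16-cell arrays not overlap.

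The first NOP9 probe set read 201, 10.4 and 230 in heifer blastocysts, and 41.0, 7.80 and 315 in adult blastocysts. Its signals were 8.93, 5.47 and 33.4 in heifer 8-16-cell embryos and 2618, 289 and 2914 in adult 8-16-cell embryos. Only the adult 8-16-cell arrays were all above background, with 1 array in each blastocyst group and none among the heifer 8-16-cell embryos. Mean log2 signals were 6.81 ± 1.81, 6.26 ± 1.93, 4.90 ± 0.64 and 10.38 ± 1.84 in heifer blastocysts, adult blastocysts, heifer 8-16-cell and adult 8-16-cell embryos (SD, n = 3 each). The heifer 8-16-cell embryos differed from the adult ones by -5.48 without overlap, and were at least 2.05-fold lower once each was raised to its own array's background (3.29-fold without heifer replicate 3). With all signals raised to the highest background of any array, that of heifer replicate 3, the difference was -0.49.

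For the same NOP9 probe set, heifer and adult blastocysts overlapped, with a difference of 0.55 (SE 1.39, interval -2.20 to 3.30, adjusted p = 0.9996). Adult blastocysts differed from adult 8-16-cell embryos by -4.12 (SE 1.39, interval -6.86 to -1.37), which did not pass the threshold (adjusted p = 0.1012 by limma). The brightest adult blastocyst array, 315, lay above the dimmest adult 8-16-cell array, 289. These adult 8-16-cell arrays were the ones the low heifer signal was set against when NOP9 was listed, so the estimate is not free of that choice. With signals raised to the highest background the estimate was -0.49. With array weights in the fit the adjusted p was 0.03404, and it ranged from 0.03404 to 0.4838 over the alternatives. Heifer blastocysts differed from heifer 8-16-cell embryos by 1.91, with overlapping arrays, and the difference of donor effects was 6.03 (0.49 with signals raised to the highest background), both as descriptions.

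The second NOP9 probe set read 105, 5.60 and 145 in heifer blastocysts and 6.83, 4.38 and 11.8 in adult blastocysts. In heifer 8-16-cell embryos it read 15.4, 438 and 365, and in adult 8-16-cell embryos 41.6, 7.46 and 124. Its sign between heifer and adult 8-16-cell embryos, 1.61, was opposite to that of the first probe set, but only 1 heifer array was above background and the groups overlapped. The third NOP9 probe set read 129, 112 and 38.2 in heifer blastocysts and 23.0, 34.2 and 402 in adult blastocysts, and 45.5, 15.1 and 354 in heifer against 155, 514 and 131 in adult 8-16-cell embryos. Its 8-16-cell difference was -1.41 with overlap. In the tested contrasts, heifer minus adult blastocysts gave 1.68 (SE 1.17) and 0.10 (SE 1.36) for the second and the third NOP9 probe set, the small second value turning sign under quantile normalization (-0.02) and median centring (-0.16), and adult blastocysts minus adult 8-16-cell embryos gave -1.29 and -1.34 (adjusted p = 0.8113 and 0.8449).

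NCL was among the brightest probe sets on every array. NCL read 40189, 64002 and 39854 in heifer blastocysts, and 65137, 56115 and 54265 in adult blastocysts. It read 72004, 38708 and 23099 in heifer 8-16-cell embryos and 60369, 29745 and 45596 in adult 8-16-cell embryos, and all 4 groups overlapped. The log2 means were 15.51 ± 0.39 in heifer blastocysts, 15.83 ± 0.14 in adult blastocysts, 15.29 ± 0.82 in heifer 8-16-cell embryos and 15.41 ± 0.51 in adult 8-16-cell embryos (SD, n = 3 each). Adult blastocysts thus had the highest mean and heifer 8-16-cell embryos the lowest, with no step between neighbours beyond the spread. The whole range over 12 arrays was 3.12-fold. For GNL3 it was 795-fold, but the lowest GNL3 signals lay under background on the heifer 8-16-cell arrays that chose the gene. The size of the GNL3 range is therefore not measured.

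No NCL comparison passed the threshold in limma, and the intervals were the narrowest of the members. Heifer minus adult gave -0.32 in blastocysts (SE 0.62, interval -1.55 to 0.91, adjusted p = 0.9996) and -0.12 in 8-16-cell embryos (interval -1.35 to 1.12, adjusted p = 0.969), and the 8-16-cell sign turned without heifer replicate 3 (0.28) or adult replicate 1 (0.12). Blastocysts minus 8-16-cell embryos gave 0.22 in the heifer groups (interval -1.01 to 1.45, adjusted p = 0.919) and 0.43 in the adult groups (interval -0.81 to 1.66, adjusted p = 0.9152). The heifer stage difference was -0.17 without heifer 8-16-cell replicate 3. The NCL donor effects differed by -0.20 (interval -1.94 to 1.54, adjusted p = 0.9926), a sign that turned under quantile normalization (0.08) and median centring (0.14).

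FBL was above background on 11 of 12 arrays, and the spread was in the 8-16-cell pools. FBL read 6022, 4745 and 1855 in heifer blastocysts, and 3403, 2142 and 2949 in adult blastocysts. It read 4333, 1723 and 163 in heifer 8-16-cell embryos, where the lowest value, under background, came from replicate 3, and 330, 7893 and 867 in adult 8-16-cell embryos. Within-group ranges were 3.25-fold and 1.59-fold in heifer and adult blastocysts, against 26.6-fold and 23.9-fold in heifer and adult 8-16-cell embryos. FBL log2 means were 11.88 ± 0.89 in heifer blastocysts, 11.45 ± 0.34 in adult blastocysts, 10.11 ± 2.37 in heifer 8-16-cell embryos and 10.39 ± 2.32 in adult 8-16-cell embryos (SD, n = 3 each). Heifer blastocysts had the highest mean and heifer 8-16-cell embryos the lowest, and the arrays of neighbouring groups overlapped.

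FBL passed no test either. Blastocysts minus 8-16-cell embryos gave 1.77 in the heifer groups (SE 1.33, interval -0.86 to 4.40, adjusted p = 0.6066) and 1.06 in the adult groups (interval -1.57 to 3.69, adjusted p = 0.8921). Heifer minus adult gave 0.43 in blastocysts (interval -2.20 to 3.06, adjusted p = 0.9996) and -0.28 in 8-16-cell embryos (interval -2.91 to 2.35, adjusted p = 0.966). The last sign turned without heifer 8-16-cell replicate 3 (1.04), and the heifer stage difference was then 0.46. Leaving out adult 8-16-cell replicate 2 gave 1.0 for the donor difference. The donor effects of FBL differed by 0.71 (interval -3.01 to 4.43, adjusted p = 0.9915).

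A rank within the array does not depend on how arrays were scaled, and is given as the percentage of probe sets at or below the signal on that array. GNL3 lay between 81.1% and 95.5% in heifer blastocysts, 75.4% and 98.1% in adult blastocysts, 14.1% and 47.6% in heifer 8-16-cell embryos, and 92.5% and 97.4% in adult 8-16-cell embryos. The first NOP9 probe set lay between 17.4% and 67.6%, 15.2% and 77.2%, 0.0999% and 9.36%, and 74.8% and 93.4% in the same order of groups. On the heifer 8-16-cell arrays, whose low signals chose GNL3 and NOP9, both probe sets were under background, where the order of ranks is not settled. The ranks on those arrays are descriptions. NCL stayed between 98.6% and 99.9% on all 12 arrays. FBL ranged from 91.9% to 96.9% in heifer blastocysts and 91.5% to 93.8% in adult blastocysts, and more widely, 50.1% to 95.0% and 83.3% to 97.5%, in heifer and adult 8-16-cell embryos.

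**Figure D2:**
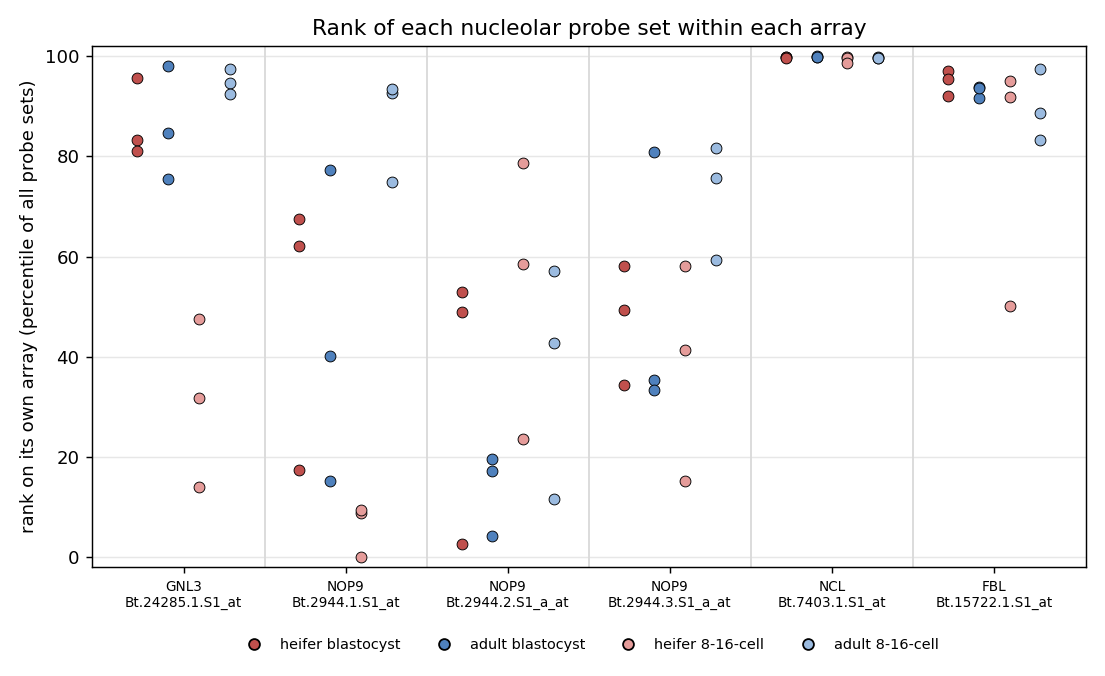
Percentage of probe sets at or below each member's signal on the same array, per array and group, with heifer left of adult and blastocyst left of 8-16-cell. GNL3 and the first NOP9 probe set lie between 0.0999% and 47.6% on the heifer 8-16-cell arrays that chose them, where both are under background. NCL stays above 98% on all arrays.

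Set against all probe sets, no tested member was called in any of the 5 contrasts by limma. All 6 probe sets were tested in blastocysts and in the adult stage contrast, and NCL and FBL alone in the other 3. Heifer against adult blastocysts called 0% of probe sets in either direction (3.68% at an unadjusted p of 0.05), and 0 of the 6 members had an unadjusted p that low. In adult embryos, 1.26% of probe sets were higher and 0.87% lower in blastocysts than at the 8-16-cell stage, in heifer embryos 1.43% were higher and 0.912% lower, and at the unadjusted level 1 of 6 members passed in adults, the first NOP9 probe set, while 11.1% of all probe sets did. NCL and FBL did not pass at the unadjusted level in the heifer stage contrast, where 13.8% of all probe sets did. Heifer against adult 8-16-cell embryos called 0.0125% higher and 0.00833% lower, and the difference of donor effects 0% in either direction, and NCL and FBL had no unadjusted p under 0.05 in either (9.02% and 5.44% of all probe sets did). Members whose arrays did not overlap between groups numbered 0 of 6 between heifer and adult blastocysts (9.82% of all probe sets), 0 in the adult stage contrast (17.2%), 1 in the heifer stage contrast (16.6%, GNL3) and 2 between heifer and adult 8-16-cell embryos (12.7%, GNL3 and NOP9). The last 2 counts use the arrays that chose GNL3 and NOP9, and nothing is read from them.

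The median difference over all probe sets was not zero. It was 0.16 between heifer and adult blastocysts, 0.08 in the adult stage contrast, -0.37 in the heifer stage contrast and 0.59 between heifer and adult 8-16-cell embryos. After quantile normalization the GNL3 and first NOP9 differences between heifer and adult 8-16-cell embryos were -6.33 and -5.74, and those of NCL and FBL were -0.47 and -0.83.

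**Figure D3:**
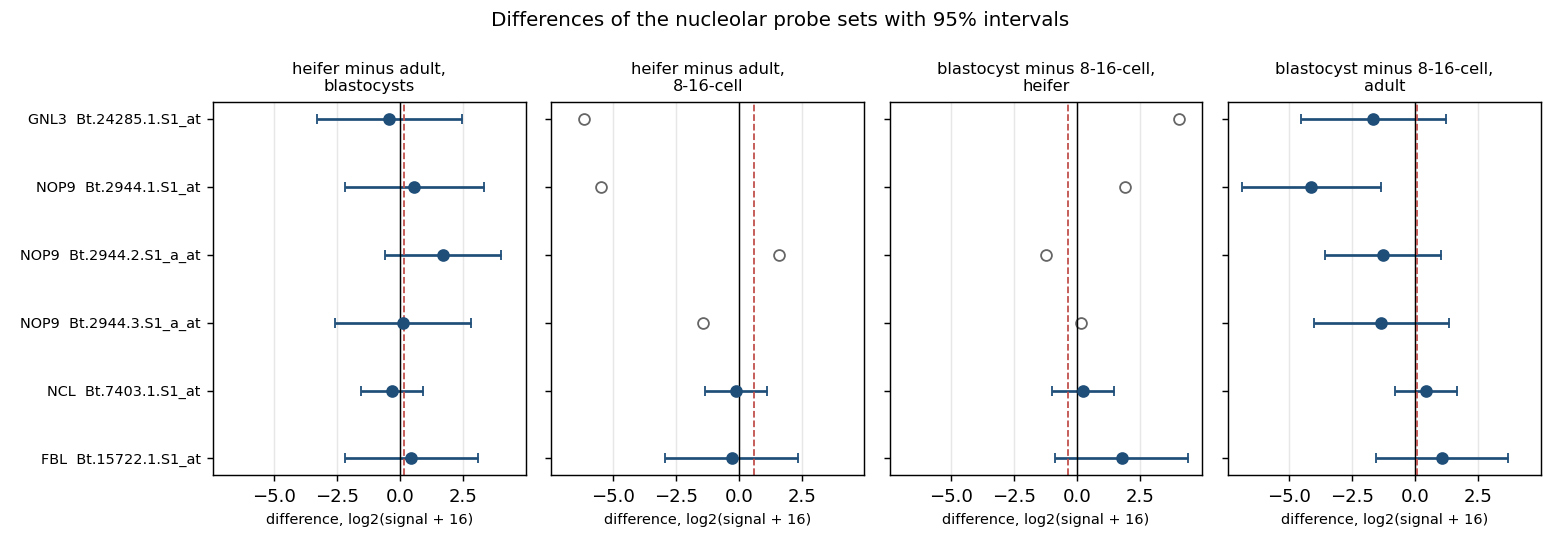
Log2 difference of each member probe set in each contrast. Filled points are tested differences with a 95% interval, open points are descriptions that use the heifer 8-16-cell arrays that chose GNL3 and NOP9, and the red dashed line is the median over all probe sets. Every interval except that of the first NOP9 probe set in adult embryos crosses zero.

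Beyond the members, 128 of 169 listed genes of ribosome making were measured, each by its probe set of highest mean signal, and 126 were above background on at least 1 array. Of the 128, none was called between heifer and adult blastocysts by limma or between heifer and adult 8-16-cell embryos. At an unadjusted p of 0.05, 10 (7.81%, against 3.68% of all probe sets) passed in blastocysts and 14 (10.9%, against 9.02%) in 8-16-cell embryos. Each stage contrast called 4 genes, all lower in blastocysts, which is 3.12% of the list, against 0.87% of all probe sets called lower in adults and 0.912% in heifers. At the unadjusted level the stage contrasts had 17 list genes in adults (13.3%, against 11.1%) and 21 in heifers (16.4%, against 13.8%). All these list shares count the brightest probe set of each gene. The shares of all probe sets also include dimmer ones and 10638 that name no gene. The sets are therefore unlike, and no excess of the list is read from them. No list gene was called higher in blastocysts. Differences above zero numbered 45 in adults (35.2%, against 53.6% of 9155 genes) and 53 in heifers (41.4%, against 46.5%). The list's median difference was 0.14 between heifer and adult blastocysts, against 0.18 over 9155 genes, and -0.29 between heifer and adult 8-16-cell embryos, against 0.46.

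In adult embryos, 4 of 128 list genes were called lower in blastocysts and the list's median was -0.56, against 0.13 over all 9155 genes. NAT10, which acetylates RNA of the small subunit, read 15.3, 509 and 316 in adult blastocysts and 5533, 18710 and 6877 in adult 8-16-cell embryos, a difference of -5.67 (SE 1.41, adjusted p = 0.009334). A dimmer NAT10 probe set gave -1.64 (adjusted p = 0.8098). DIMT1, a dimethyltransferase of the same RNA, read 144, 844 and 302 in adult blastocysts and 12772, 9613 and 12811 in adult 8-16-cell embryos (-5.05, SE 1.34, adjusted p = 0.01839). RRN3, which brings RNA polymerase I to the ribosomal RNA promoter, read 2449, 877 and 1659 in adult blastocysts and 24124, 14055 and 32898 in adult 8-16-cell embryos (-3.86, SE 1.08, adjusted p = 0.0292). NHP2, a core protein of the box H/ACA particles that make pseudouridine, read 339, 63.3 and 177 in adult blastocysts and 7972, 7456 and 1572 in adult 8-16-cell embryos (-4.70, SE 1.40, adjusted p = 0.04538). In all 4 genes the arrays of the stages do not overlap, as in 17.2% of all probe sets. These genes were picked by their call in the same contrast, so nothing is read from this.

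Each of these 4 calls was lost when some single arrays were left out. The NAT10 call ended when adult blastocyst replicate 1 was left out (adjusted p = 0.1491) or when adult 8-16-cell replicate 2 was, and also with signals raised to the highest background (0.07087) and over the mean of its probe sets (0.1786). DIMT1 ended on leaving out replicate 1 or 3 of either adult stage (adjusted p up to 0.115), and kept its call under all 11 other alternatives. RRN3 was lost in 5 of 6 such fits, those without adult 8-16-cell replicates 1 or 3 or any adult blastocyst array (up to 0.1621), and without the variance trend (0.05115) and over the mean of its probe sets (0.1038). NHP2 was lost in 5 of 6, without adult 8-16-cell replicates 1 or 2 or any adult blastocyst array (up to 0.2205), and without heifer blastocyst replicates 1 or 3 (0.06217 and 0.0553). It was also lost with a pseudocount of 64 (0.05635), with signals raised to the highest background (0.3127) and after quantile normalization (0.0602).

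The 4 genes called lower in heifer blastocysts shared DIMT1 with that set, a comparison between contrasts that use different arrays. SBDS, which helps free the large subunit for translation, read 2352, 438 and 427 in heifer blastocysts and 16952, 13687 and 51709 in heifer 8-16-cell embryos (-4.87, SE 1.18, adjusted p = 0.006201). A dimmer SBDS probe set gave -4.40 (adjusted p = 0.02462) and another gave -0.70 (adjusted p = 0.88), and the mean over all its probe sets gave -3.33 (adjusted p = 0.1155). DIMT1 read 960, 18.1 and 1056 in heifer blastocysts and 6545, 6433 and 18002 in heifer 8-16-cell embryos (-4.80, SE 1.34, adjusted p = 0.02615). TAF1A, a subunit of the promoter factor SL1 of RNA polymerase I, read 4.80, 5.37 and 11.6 in heifer blastocysts, all under background, and 931, 432 and 378 in heifer 8-16-cell embryos, the last also under background (-4.58, SE 1.34, adjusted p = 0.0377 by limma). With signals under background at both stages, the size of that TAF1A difference is not measured and no fold bound is given. LTV1, an assembly factor of the small subunit, read 815, 84.6 and 425 in heifer blastocysts and 8408, 2982 and 12216 in heifer 8-16-cell embryos (-4.34, SE 1.28, adjusted p = 0.03881), while its second probe set gave -0.83 (adjusted p = 0.8495). The list's median in heifer embryos was -0.38, against -0.16 over all genes.

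These calls, too, were lost in some fits without 1 array. SBDS was lost without heifer blastocyst replicate 2 or 3 (adjusted p = 0.05521 and 0.05643). DIMT1 was lost without heifer 8-16-cell replicate 3 (0.08578) or heifer blastocyst replicate 2 (0.3451). TAF1A was lost in 5 of 6, without heifer 8-16-cell replicates 1 or 2 or any heifer blastocyst array (up to 0.1558), and with a pseudocount of 64 (0.0623), quantile normalization (0.06632) or only the groups compared (0.07755). LTV1 was lost in 5 of 6, without heifer 8-16-cell replicates 1 or 3 or any heifer blastocyst array (up to 0.2535), and without adult blastocyst replicate 3 (0.05064). It was also lost with signals raised to the highest background, median centring, array weights, only the groups compared and the mean over probe sets (0.06475 to 0.2966).

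Within the list, RNA polymerase I and its factors had 13 of 14 genes below zero in the adult stage contrast, with a median of -1.03, and the small subunit processome and maturation factors had 36 of 47 below zero with a median of -0.86. The share of all 9155 genes below zero there was 46.4%. The box C/D and H/ACA proteins, the class of FBL, gave a median of 0.19 over 11 genes, the large subunit assembly and export factors -0.25 over 39, the exosome and trimming genes -1.10 over 12 with 8 below zero, and the other nucleolar proteins 0.43 over 5. In the heifer stage contrast, RNA polymerase I and its factors had 9 of 14 below zero (median -0.59) and the small subunit class 29 of 47 (-0.56), where 53.5% of all genes were below zero. The heifer medians of the other classes were -0.84 for the box C/D and H/ACA proteins, 0.07 for the large subunit class, -0.71 for the exosome genes and -0.39 for the other nucleolar proteins. These are counts and medians only, and 124 of the 128 genes passed no test in each stage contrast. The oocyte markers also summed lower in blastocysts, as given above, and their part in the list's values was not tested.

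**Figure D4:**
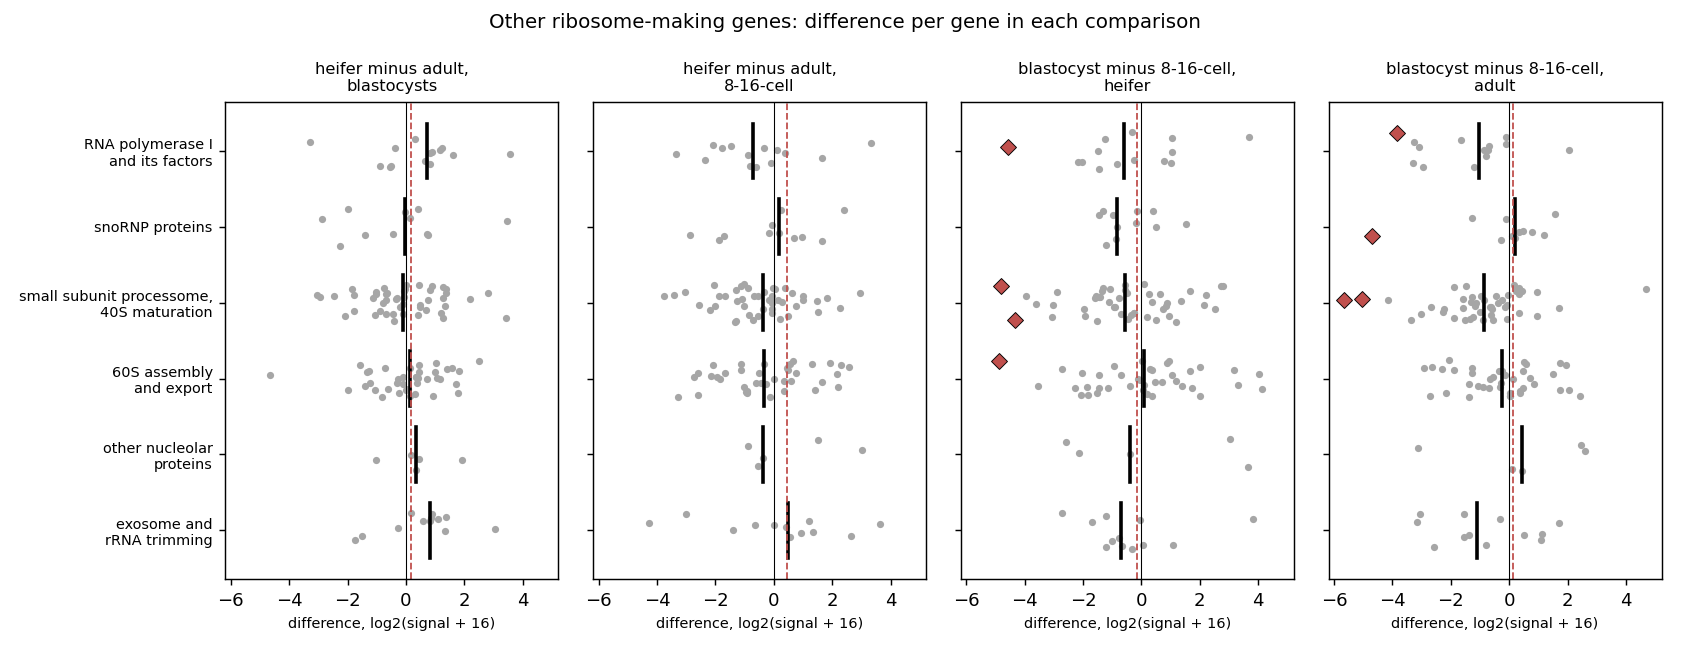
Log2 difference of the listed genes of ribosome making by class and contrast. Grey points were not called, red diamonds were called, the black bar is the class median and the red dashed line is the median of the 9155 genes. All called genes lie below zero, 4 in each stage contrast.

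The genes whose signal followed each member most closely were found by Pearson's r over the 12 arrays among probe sets above background on at least 6 of them. These arrays fall into groups, and the genes named are the highest of 3748 to 3749 candidates for each member. The r values are therefore descriptions, and nothing is read from their height. For GNL3 the closest genes were REV3L (0.825), RNMT (0.793) and CMPK1 (0.788). For the first NOP9 probe set they were DPH3 (0.832), PITPNB (0.804) and TMEM51 (0.782), for the second CFL2 (0.809), C17H12orf76 (0.783) and LAMC1 (0.779), and for the third MSL3 (0.756), STRN3 (0.746) and RBM18 (0.743). NCL was followed by YES1 (0.891), CCDC47 (0.857) and ANKRD28 (0.829), and FBL by SRPRA (0.883), RRM2 (0.882) and TMEM59 (0.881). Among the members themselves r was 0.58 between GNL3 and the first NOP9 probe set and 0.32 between NCL and FBL. The value of 0.58 uses the arrays whose low signal put GNL3 and NOP9 on the list. That choice favours a positive r, so nothing is read from it. Over all pairs of member probe sets r ran from -0.64, between NCL and the second NOP9 probe set, to that 0.58. No listed gene of ribosome making was among the genes most alike. Only 98 list genes were above background on at least 6 arrays, beside 3748 to 3749 candidate probe sets for each member, so nothing is read from this.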

How the data were processed

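Total RNA of each pool was amplified, labelled with biotin and hybridized to a bovine Affymetrix array, per the labels' protocols. The deposited values are signal intensities that the authors made with MAS5, per the submitters' processing notes, in which each array is scaled on its own, so they show relative and not total RNA levels. The mean after trimming 2% at each end was 500.19 to 500.31 on all 12 arrays. No source used here gives the MAS5 version. Of 24128 probe sets, 112 controls were left out, and 13292 name 1 gene, 86 several and 10638 none.

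Signals were analysed as log2(signal + 16) with limma 3.58.1 in R 4.3.3 (lmFit, contrasts, eBayes with trend), with 1 mean per group, 8 residual degrees of freedom and two-sided tests. The fit was tested on simulated data. With 3 arrays per group, their number limits the precision. Where all 3 arrays of a group were at background and all 3 of the other group above it, the fold is a bound computed with the low signals raised to each array's background.

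The members and gene lists were chosen with earlier results of these data known. The genes named are the members, up to 4 called list genes per direction and contrast with the smallest p, and the 3 genes most like each member. NOLC1 and DDX24 were named after their values were seen. Alternatives covered the pseudocount, low signals, scaling, variance model, array weights, arrays fitted, the block by number, probe sets of a gene, and each array left out.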

Additional observations from a re-analysis of the deposited data

Results flagged for a closer look

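TAF1A, a subunit of the RNA polymerase I promoter factor SL1, was listed with donor differences of opposite sign at the 2 stages. Its signals were 4.80, 5.37 and 11.6 in heifer blastocysts, against 112, 334 and 245 in adult blastocysts, and 931, 432 and 378 in heifer 8-16-cell embryos, against 9.06, 8.74 and 248 in adult 8-16-cell embryos. Only 3 of these 12 signals were above background, 2 in heifer 8-16-cell embryos and 1 in adult blastocysts, so most have no settled order and the size of the difference is not measured. The fitted difference of donor effects, blastocyst minus 8-16-cell, was -6.63 and did not pass in limma (adjusted p = 0.7661).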

How the results depend on the processing

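No tested member was called under any setting except array weights, with 1 called in the adult stage contrast (the first NOP9 probe set). Median centring put 2 members past the threshold between heifer and adult 8-16-cell embryos, but these were GNL3 and that NOP9 probe set, whose low values there chose them, so it is no test. For the list, with 4 called in the adult stage contrast, a floor at the highest background left 2, the mean over a gene's probe sets 2, and leaving out single arrays 1 to 5. Without adult blastocyst replicate 1 none of the 4 was left, and the 1 call was of a gene that rose. In the heifer stage contrast, with 4 called, fitting only the groups compared left 2 and leaving out single arrays 0 to 4, with 0 without heifer blastocyst replicate 2. A replicate block changed no call: it left 0 members called in each contrast and 4 list genes in each stage contrast. Deviations of same-numbered arrays correlated between -0.0219 and 0.0397 over 9807 probe sets, so no deviation shared by number was seen over these as a whole. For GNL3 itself, replicate 1 was the highest in each of the 4 groups, as given above. These values cannot tell whether same-numbered pools were made or hybridized together.

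Of 387 values of tested member differences under alternatives, 26 turned sign, all in differences smaller than their SE. Of 250 values that are descriptions, 11 turned sign, 6 in the donor effects of the second NOP9 probe set (0.06) and 5 in the heifer stage difference of the third (0.17). The GNL3 difference of donor effects ran from 4.58 to 7.21 with single arrays left out. The third NOP9 probe set between heifer and adult blastocysts turned under a pseudocount of 64 (-0.065), quantile normalization (-0.023) and median centring (-0.16). The NCL difference of donor effects turned under quantile normalization (0.076) and median centring (0.14), FBL in the adult stage contrast under the floor (-0.0081), and FBL between heifer and adult 8-16-cell embryos under array weights (0.25). Leaving out single arrays gave -1.56 to 1.07 for GNL3, -0.29 to 1.61 for the first and -0.53 to 1.18 for the third NOP9 probe set between heifer and adult blastocysts. It gave -0.17 to 0.65 for NCL in the heifer stage contrast, -0.54 to 0.28 for NCL and -1.27 to 1.04 for FBL between heifer and adult 8-16-cell embryos, and -0.60 to 0.22 for NCL and -0.60 to 1.70 for FBL in the difference of donor effects. The cause of these turns was not tested. The second NOP9 probe set was not tested under the filter on low signals, which 5 of 6 members passed.

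The 3 arrays per group and the background of 122 to 1664 limit what can be said of dim probe sets, above all NOP9.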

Other observations

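For 2 listed genes a dimmer probe set was called where the brightest was not. NOLC1, a nucleolar phosphoprotein that works with RNA polymerase I, gave -5.40 (SE 1.49, adjusted p = 0.02598 by limma) in adult blastocysts against adult 8-16-cell embryos on its dimmer probe set and -0.68 (adjusted p = 0.9371) on its brightest. DDX24, an RNA helicase, gave -4.92 (SE 1.34, adjusted p = 0.02166) in heifer blastocysts against heifer 8-16-cell embryos on its dimmer probe set and -0.39 (adjusted p = 0.9237) on its brightest.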
